A study of Homo sapiens with 12 samples.

Results

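The 7 genes described here encode TRAIL (TNFSF10), the 5 receptors that bind it (TNFRSF10A, TNFRSF10B, TNFRSF10C, TNFRSF10D and TNFRSF11B) and FAS, a related death receptor with its own ligand. They are 7 of the 16383 genes in the deposited table, found there by symbol, and all 7 were listed. TNFRSF10D was chosen because its level rose with both inhibitors, so its values in those 2 comparisons are a description and were not tested. The other genes were taken with it as the ligand, the death receptors and the decoys of the same system.

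TRAIL is a membrane protein of the tumour necrosis factor family that can also be shed. It binds TNFRSF10A (death receptor DR4) and TNFRSF10B (DR5), whose cytoplasmic death domains recruit the adaptor FADD and caspase 8 and so start apoptosis. TNFRSF10C (decoy receptor DcR1) is held in the membrane by a lipid anchor and has no cytoplasmic domain, TNFRSF10D (DcR2) has a truncated death domain, and TNFRSF11B (osteoprotegerin) is secreted and also binds the bone cytokine RANKL, so these receptors can take up ligand without passing on the death signal. TNFRSF10B and FAS are textbook genes of the transcriptional response to DNA damage, TRAIL is known as an interferon-induced gene, and DcR2 has been used as a marker of senescent fibroblasts.

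RNA was sequenced from IMR90, an established line of human lung fibroblasts with a wild-type genotype, after poly(A) capture. The 4 groups of 3 libraries were untreated proliferating cells and cells made senescent with 20 Gy of ionizing radiation over 10 min, which then received DMSO, palbociclib, which inhibits the cell cycle kinases CDK4 and CDK6, or ruxolitinib, which inhibits the Janus kinases that signal for interferon and other cytokine receptors. Each inhibitor was used at 2 µM from day 4, with further doses on days 6, 8 and 10, and collection followed on day 11. The groups are called proliferating, DMSO, palbociclib and ruxolitinib below, and the last 3 all share the irradiation.

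The 250 bases before the start of TNFSF10 are shown because the ligand had its highest level where interferon-stimulated genes did. They are RefSeq sequence of GRCh38.p14, chr3:172523431-172523680, read on the minus strand, and the capitals mark the only match to GAAA, any 2 bases and GAAA, the core of the interferon-stimulated response element, which appears here as its reverse complement.
TNFSF10: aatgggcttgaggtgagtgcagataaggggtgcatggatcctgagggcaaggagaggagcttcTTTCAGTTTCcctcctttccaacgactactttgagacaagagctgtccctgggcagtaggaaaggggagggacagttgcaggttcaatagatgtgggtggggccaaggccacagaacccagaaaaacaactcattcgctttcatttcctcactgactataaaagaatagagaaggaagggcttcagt
The match lies 187 to 178 bases before the start. The motif was chosen after the values had been seen, was searched on both strands and was the only motif searched. It occurred in 1061 of 35116 RefSeq windows of the same length (3.02%), and in none of the 3 windows of FAS. FAS, TNFRSF10A and TNFRSF10C also had their highest group mean with DMSO, so a highest level there is not particular to the ligand. Of the 7 genes, 2 (TNFSF10 and FAS) were matched in that promoter table. A match of these letters is a description and not a measured binding site.

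In the human genome build hg38, with gene models from GENCODE v44, 4 of the receptor genes lie side by side on chromosome 8 and span 205.0 kb. TNFRSF10B (chr8:23020133-23069031, minus strand) is followed by TNFRSF10C (chr8:23102921-23117445, plus strand), TNFRSF10D (chr8:23135588-23164027, minus strand) and TNFRSF10A (chr8:23190452-23225102, minus strand). TNFRSF11B lies apart on the same chromosome (chr8:118923557-118951885, minus strand), TNFSF10 on chromosome 3 (chr3:172505508-172523475, minus strand) and FAS on chromosome 10 (chr10:88953813-89029605, plus strand). No stretch of 50 bases in the canonical transcript of any of the 7 genes occurred in a transcript of another. Exactly matching reads of that length or longer from canonical transcripts could therefore not be split between them. Other transcripts of these genes were not compared with each other. TNFRSF10C shared 32.2% of its 50-base words with an lncRNA and a protein-coding gene annotated on the same strand. Its counts are uncertain for that reason, and by how much was not tested. TNFRSF10A shared 10.7%, with antisense and divergent transcripts at its start among the leading matches, and TNFRSF10B shared 9.6%, with RHOBTB2 on the opposite strand among them. The strand setting of the authors' counting is not given in the sources used here.

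Over the listed genes, 14106799 to 21762412 reads were recovered per library, and every replicate pair differed by more than counting noise. The chi-square per degree of freedom of a pair was 2.88 to 16.4 in proliferating and 2.38 to 2.75 in DMSO libraries. With palbociclib it was 6.18 to 23.93 and with ruxolitinib 1.94 to 2.69. The main fit shares its estimate of spread between all groups, and the effect of this on the calls was not tested. The labels do not say that replicates came from separate cultures, so p-values measure the spread between these libraries, which may be technical. All 11 fibroblast markers were present in every group, led by COL1A1, with summed levels of 1010878 to 1019819 normalized counts in proliferating, 470591 to 483067 in DMSO, 728980 to 747366 in palbociclib and 578020 to 582511 in ruxolitinib libraries. Of 7 epithelial markers 3 passed the filter, of 5 endothelial markers 2 and of 8 blood and immune markers 2. The sums of these lists were 215 to 268, 411 to 466, 536 to 695 and 390 to 445 normalized counts (epithelial), 1681 to 1949, 2389 to 2554, 3501 to 4380 and 2247 to 2254 (endothelial, almost all of it TEK) and 546 to 572, 1233 to 1309, 701 to 810 and 1076 to 1155 (blood and immune, almost all of it CD68), in the same order of groups. Defining markers at 0 in a whole group included the lung epithelial SFTPC with DMSO and in proliferating cells, the T cell gene CD3E in the same groups, and the endothelial CDH5 with palbociclib. Other markers of these lists were present. KRT19 stood at 97.2, 256, 402 and 296 normalized counts and VWF at 5.04, 19.1, 21.2 and 26.0, in the same order of groups. MUC1 stood at 114.6, 153.5, 174.3 and 90.7. CDH1 was at 0 reads in proliferating cells and at 9 to 17 reads with palbociclib. The part of these shifts in the results below was not tested. In bulk RNA, fewer cells with a transcript and less transcript per cell cannot be told apart.

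TNFSF10 was low in all groups. The proliferating libraries held 2.08, 3.33 and 4.76 normalized counts, the DMSO libraries 21.8, 24.9 and 22.0, the palbociclib libraries 9.96, 8.76 and 10.7 and the ruxolitinib libraries 13.1, 6.30 and 10.8. These values rest on 2 to 5 reads per proliferating library, 19 to 22 with DMSO, 8 to 12 with palbociclib and 7 to 17 with ruxolitinib. All DMSO libraries lay above all others, all proliferating libraries below, and the inhibitor groups overlapped each other. The gene passed the filter (a mean of at least 10 normalized counts over all libraries) with a mean of 11.5, and without the DMSO libraries its mean was 7.75, so the group where it is high carried it into the test. Its p-values below are therefore those of a fit without that filter unless stated, and counts are also given without it.

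Of the TRAIL death receptors, TNFRSF10B (DR5) was abundant and TNFRSF10A (DR4) was not. TNFRSF10B stood at 2085, 2189 and 2247 normalized counts in proliferating cells, at 6097.4, 6096.7 and 6039.5 with DMSO, at 5604.0, 5248 and 5759 with palbociclib and at 6336, 6468 and 6599.7 with ruxolitinib. The groups did not overlap, and the 3 irradiated groups lay close together, far above the proliferating one. TNFRSF10A stood at 54.99, 63.2 and 71.4 normalized counts in proliferating cells, at 229, 223 and 249 with DMSO, at 128, 135 and 162 with palbociclib and at 228, 199.9 and 212 with ruxolitinib. Here the palbociclib libraries lay between the proliferating libraries and the overlapping DMSO and ruxolitinib libraries.

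FAS, which carries a death domain like DR4 and DR5 but binds FAS ligand, was the other abundant death receptor among the genes described here. It stood at 589, 531 and 641 normalized counts in proliferating cells, at 2074, 2127 and 2114 with DMSO, at 1571, 1535 and 1499 with palbociclib and at 1931, 1944 and 2049 with ruxolitinib. The 4 groups did not overlap. The gene of its ligand, FASLG, was at 0 or 1 read in every library. ACTA2, the smooth muscle actin gene, overlaps the FAS gene on the opposite strand without overlap of canonical exons, and its level ran at 15437 ± 475 normalized counts in proliferating, 5076 ± 263 in DMSO, 12569 ± 1074 in palbociclib and 4419 ± 59.9 in ruxolitinib libraries (SD, n = 3), an order unlike that of FAS.

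The membrane decoys had unlike patterns. TNFRSF10D (DcR2) stood at 2563, 2393 and 2639.6 normalized counts in proliferating cells and at 4232, 4838 and 4670.4 with DMSO. With palbociclib it stood at 16296, 14524 and 13867 normalized counts and with ruxolitinib at 16073, 15609.9 and 15933. The inhibitor groups overlapped each other, and each of their libraries lay well above every DMSO library. TNFRSF10C (DcR1) was a gene of low level with another pattern, at 11.4, 14.4 and 19.0 normalized counts in proliferating cells, 273, 257 and 312 with DMSO, 98.5, 66.8 and 77.3 with palbociclib and 239, 234 and 254.5 with ruxolitinib. None of its groups overlapped.

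TNFRSF11B (osteoprotegerin), the soluble decoy, stood at 713, 642 and 769 normalized counts in proliferating cells, at 1454, 1565 and 1493 with DMSO, at 2537.5, 2274 and 2247 with palbociclib and at 1416, 1408 and 1438 with ruxolitinib. It was highest with palbociclib, and the ruxolitinib libraries lay just below the DMSO libraries.

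**Figure D1:**
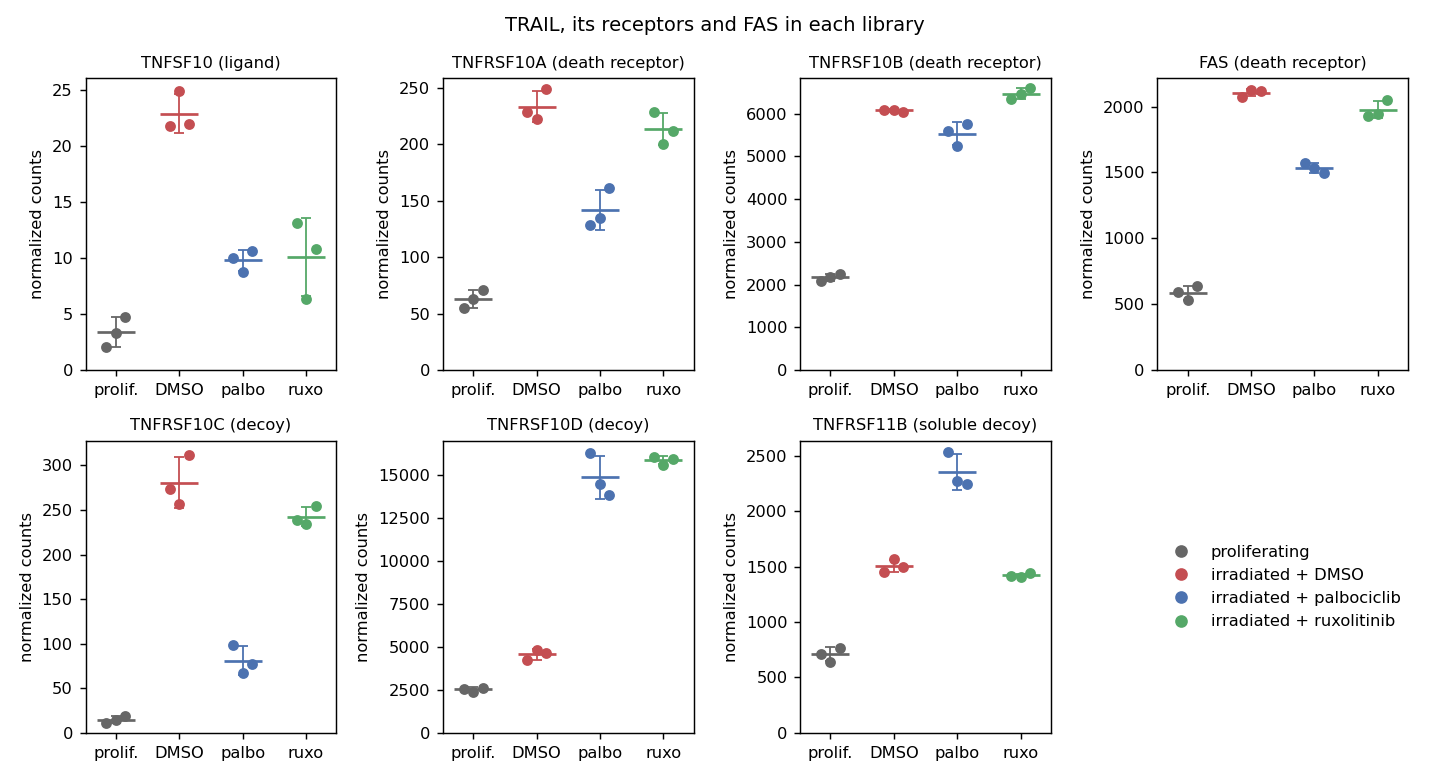
Normalized counts (vertical axis, linear and starting at 0, with its own range for each gene) of the 7 genes in each library of the 4 groups; points are libraries, and bars are the group mean with its SD (n = 3). TNFRSF10D sits between 13867 and 16296 in the inhibitor libraries and between 4232 and 4838 in the DMSO libraries, while TNFRSF10C is lowest among the irradiated groups with palbociclib.

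Levels can be ordered between genes only per length, and this was done by dividing normalized counts by the kilobases of the canonical transcript. In proliferating cells the order was TNFRSF10D (716 ± 35.7 per kb; SD, n = 3), TNFRSF10B (544 ± 20.6), TNFRSF11B (339 ± 30.6), FAS (159 ± 14.8), TNFRSF10A (23.5 ± 3.05), TNFRSF10C (10.7 ± 2.76) and TNFSF10 (1.81 ± 0.716). No neighbours in that order overlapped. With DMSO the order of the first pair was exchanged, with TNFRSF10B (1520.2 ± 8.31 per kb) above TNFRSF10D (1296 ± 88.5), and TNFRSF10C (201 ± 20.4) had passed TNFRSF10A (86.7 ± 5.07). With palbociclib TNFRSF10D led again at 4214 ± 356 per kb, over TNFRSF10B at 1385 ± 65.5 and TNFRSF11B at 1127 ± 76.9, and TNFRSF10C (58.0 ± 11.6) and TNFRSF10A (52.6 ± 6.58) overlapped. With ruxolitinib TNFRSF10D was at 4490.0 ± 67.2 per kb, TNFRSF10B at 1618 ± 33.0 and TNFRSF11B at 681 ± 7.49. The ligand was the lowest of the 7 in every group, at 12.2 ± 0.921 per kb with DMSO, 5.22 ± 0.513 with palbociclib and 5.37 ± 1.85 with ruxolitinib.

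The first comparison set irradiated, senescent cells with DMSO against proliferating cells. The proliferating cells are labelled as untreated, with no vehicle and no collection day given. Irradiation, DMSO and time in culture therefore cannot be told apart here. All 7 genes were at a higher level in the senescent cells. TNFRSF10C rose most, from 14.96 ± 3.84 to 281 ± 28.4 normalized counts (fitted log2 fold change 4.17, SE 0.17, adjusted p 8.07e-12 by limma). TNFSF10 rose from 3.39 ± 1.34 to 22.9 ± 1.73, a 6.75-fold ratio of means (log2 fold change 2.49, adjusted p 9.11e-06 without the filter), which the added 1 understates at such low counts.

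The death receptors rose by similar amounts. The log2 fold change was 1.87 (SE 0.12, adjusted p 1.47e-09) for TNFRSF10A, 1.48 (SE 0.05, adjusted p 4e-13) for TNFRSF10B and 1.84 (SE 0.06, adjusted p 6.83e-13) for FAS. The soluble decoy TNFRSF11B rose by 1.09 (SE 0.07, adjusted p 8.73e-10). For TNFRSF10D the log2 fold change was 0.85, given with no test because its DMSO libraries entered the choice of that gene.

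Of all 11242 genes tested, 33.0% were higher and 39.3% lower in this comparison, so most genes were called. The median log2 fold change of the 7 genes was 1.84, beside -0.05 over all genes tested. Higher genes made up 45.7% of all calls. The share was 64.0% when libraries were set to an equal total and 58.5% at an equal upper quartile, and these scalings moved the median gene by 0.23 and 0.16. The 7 genes kept their direction under each. Without TNFSF10 and TNFRSF10D, 5 of 5 were called higher, with a median of 1.84.

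Palbociclib against DMSO asked what CDK4 and CDK6 inhibition changed in senescent cells. The ligand, the 3 death receptors described here and the decoy TNFRSF10C fell, and the soluble decoy TNFRSF11B rose. TNFRSF10C fell 3.47-fold, from 281 ± 28.4 to 80.9 ± 16.2 counts (fitted log2 fold change -1.80, SE 0.17, adjusted p 8.22e-07 by limma). TNFRSF10A fell 1.65-fold, from 233 ± 13.6 to 142 ± 17.7 (fitted log2 fold change -0.72, SE 0.12, adjusted p 0.000188), and FAS 1.37-fold, from 2105 ± 27.9 to 1535 ± 36.0 (fitted log2 fold change -0.46, SE 0.06, adjusted p 2.88e-05). TNFRSF11B rose 1.56-fold, from 1504 ± 56.3 to 2353 ± 160.5 (fitted log2 fold change 0.64, SE 0.07, adjusted p 1.91e-06).

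The remaining calls of this comparison were less firm. TNFSF10 fell by 1.15 on the log2 scale (adjusted p 0.0128 without the filter), from 22.9 ± 1.73 to 9.79 ± 0.962 normalized counts. With the filter its adjusted p was 0.0182, and it was not called without library A117 (adjusted p 0.0582), without A120 (0.0556) or with quantile normalization (-0.54, adjusted p 0.24). TNFRSF10B fell 1.10-fold, from 6078 ± 33.2 to 5537 ± 262 (fitted log2 fold change -0.14, SE 0.05, adjusted p 0.0296). It was not called in a fit of the 2 groups alone (adjusted p 0.0715) or without library A116 (0.0755), A117 (0.0717), A118 (0.0618) or A120 (0.102).

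Of the 6 genes tested with palbociclib, 5 were lower and 1 higher, and without TNFSF10 4 of 5 were lower and 1 higher (median log2 fold change -0.46). Of all genes tested, 22.3% were lower and 26.0% higher. The median of the 6 was -0.59, beside 0.02 over all genes. TNFRSF10D went the other way, from 4580.4 ± 313 to 14896 ± 1257 normalized counts, 3.25-fold higher (log2 fold change 1.70), the 12th largest rise of 11242 genes, given with no test because it chose the gene. Higher genes made up 53.9% of all calls, but 15.4% when libraries were set to an equal total, which moved the median gene by -0.23. Under that scaling the 5 lower genes and TNFRSF11B kept their directions, and the rise of TNFRSF10D was 1.47. With quantile normalization that rise was 1.38.

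Ruxolitinib against DMSO asked what Janus kinase inhibition changed. Of the 6 genes tested, none was called by limma, and 1 (TNFSF10) had an unadjusted p under 0.05. On the recovered reads, with the filter kept, edgeR called 1 of the 6 (TNFSF10, adjusted p 0.0356) and DESeq2 called 0. Of all genes tested, 1.1% were higher and 3.42% lower, 508 in all. That number rests on the fit. It was 1831 with only the 2 groups in the fit, 295 without library A116, 293 without A117, 276 without A118, 261 without A122, 285 without A123 and 278 without A124.

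TNFSF10 stood at 10.1 ± 3.47 normalized counts with ruxolitinib and 22.9 ± 1.73 with DMSO (log2 fold change -1.16, 95% interval -1.94 to -0.37, adjusted p 0.102 with the filter and 0.0827 without it). The log2 fold changes of the 5 receptors tested were smaller. They were 0.09 (95% interval -0.01 to 0.19) for TNFRSF10B, -0.13 (-0.39 to 0.13) for TNFRSF10A, -0.09 (-0.23 to 0.04) for FAS, -0.21 (-0.58 to 0.17) for TNFRSF10C and -0.08 (-0.23 to 0.06) for TNFRSF11B, with adjusted p-values of 0.4 to 0.687. A p that misses the threshold does not show that the levels were equal.

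TNFRSF10D with ruxolitinib was at 15872 ± 238 normalized counts, 3.47-fold above DMSO (log2 fold change 1.79), the 4th largest rise of 11242 genes, again with no test. In all, 14 genes were at least 2-fold higher with ruxolitinib, and 5 were at least 2-fold higher with both inhibitors. By the smaller of the 2 rises these were IFI27L1 (log2 1.83 with palbociclib and 1.89 with ruxolitinib), TNFRSF10D (1.70 and 1.79), CEP170 (1.43 and 1.77), CUTA (1.27 and 1.55) and ACACA (1.26 and 1.32). Both rises were computed against the same 3 DMSO libraries, so they are not independent of each other.

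**Figure D2:**
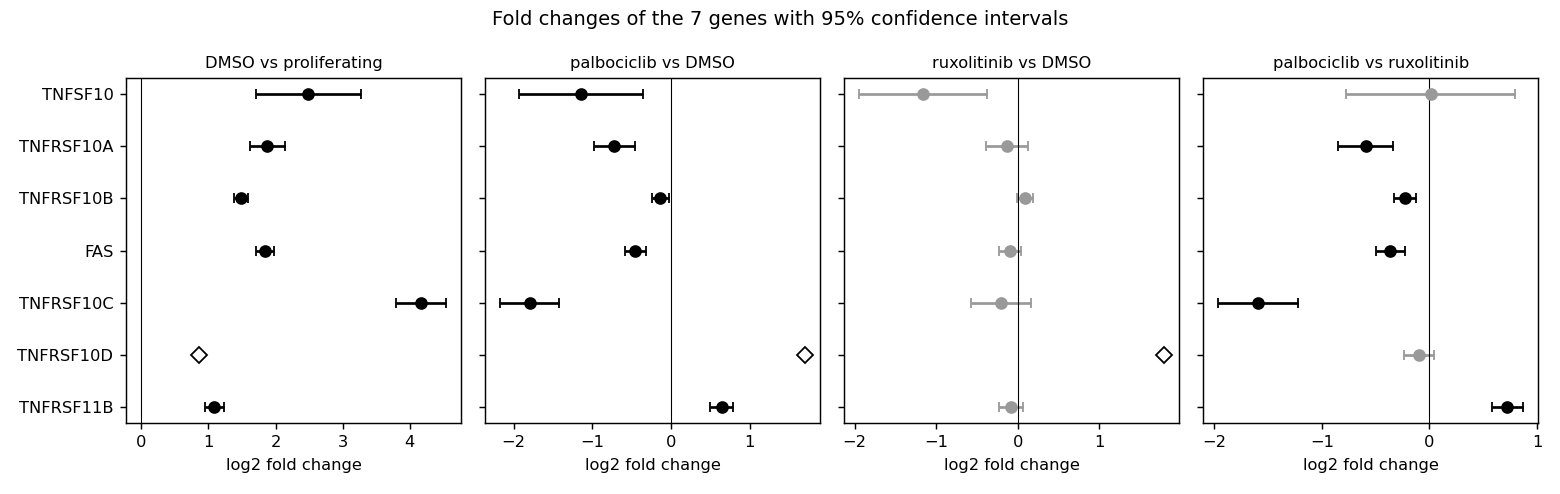
Log2 fold change (horizontal axis; normalized count plus 1, limma) of each gene in 4 comparisons, with 95% intervals; black points were called at an adjusted p under 0.05, grey points were not, and open diamonds mark TNFRSF10D where its DMSO libraries, used in its choice, enter and it is given with no test. All 7 points lie above 0 for DMSO against proliferating cells, and for ruxolitinib against DMSO all tested points are grey. The grey TNFRSF10D point for palbociclib against ruxolitinib is also a description, because those libraries entered its choice.

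Palbociclib against ruxolitinib compared the inhibitors at the same dose and time. The 3 death receptors described here and TNFRSF10C were lower with palbociclib and TNFRSF11B was higher. The log2 fold change was -1.59 (SE 0.17, adjusted p 4.03e-06 by limma) for TNFRSF10C, a 3.0-fold difference, and -0.59 (SE 0.12, adjusted p 0.00122) for TNFRSF10A. It was -0.36 (SE 0.06, adjusted p 0.000306) for FAS, -0.23 (SE 0.05, adjusted p 0.00165) for TNFRSF10B and 0.73 (SE 0.07, adjusted p 7.52e-07) for TNFRSF11B.

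The ligand was not called between the inhibitors, and TNFRSF10D is given with no test. TNFSF10 differed by 0.01 on the log2 scale, with a 95% interval of -0.77 to 0.80 (adjusted p 0.986 with the filter), which leaves room for differences of over 1.5-fold either way. TNFRSF10D differed by -0.09, a description only, because its choice for a rise with both inhibitors used these libraries. Its difference was -0.30 at an equal total, -0.38 with quantile normalization and -0.16 without library A119. Apart from TNFRSF10D, 4 of these genes were lower and 1 higher, and of all genes tested 17.6% were lower and 22.8% higher. The median log2 fold change was -0.23 for the 7 genes (-0.29 without TNFSF10) and 0.02 for all. Higher genes made up 56.4% of all calls, but 15.7% at an equal total, which moved the median gene by -0.20, and 45.8% at an equal upper quartile. The 5 called genes kept their directions under both.

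All 7 genes also stayed above the proliferating level in both inhibitor groups. TNFRSF10D stood 5.88-fold above proliferating cells with palbociclib (log2 fold change 2.55) and 6.27-fold with ruxolitinib (2.65), with no test because these libraries entered its choice. TNFRSF10C was 5.40-fold higher with palbociclib (2.37, adjusted p 5.45e-09 by limma) and 16.2-fold higher with ruxolitinib (3.96, adjusted p 1.3e-11). For FAS and TNFRSF10B the log2 fold changes were 1.39 and 1.35 with palbociclib and 1.75 and 1.57 with ruxolitinib. TNFSF10 was higher by 1.34 (adjusted p 0.00242 without the filter) and 1.33 (adjusted p 0.00255), but with quantile normalization its log2 fold change was 0.56 (adjusted p 0.175) for palbociclib and -0.29 for ruxolitinib.

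These comparisons share the proliferating libraries. Of all genes tested, 35.2% were higher and 38.6% lower with palbociclib, and 32.6% and 39.5% with ruxolitinib. Without TNFSF10 and TNFRSF10D, 5 of 5 genes were called higher with each inhibitor. The medians of the 7 genes were 1.39 and 1.75, beside -0.03 and -0.06 over all genes. With ruxolitinib, higher genes made up 45.2% of all calls, but 61.6% at an equal total and 59.3% at an equal upper quartile.

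The balance of decoy and death receptors was described as the summed per-kb level of TNFRSF10C, TNFRSF10D and TNFRSF11B over that of TNFRSF10A and TNFRSF10B. It has no test because TNFRSF10D, its largest decoy term, was chosen on these values. The ratio was 1.98, 1.74 and 1.92 in proliferating libraries, 1.30, 1.43 and 1.41 with DMSO, 4.07, 3.85 and 3.37 with palbociclib and 3.23, 3.11 and 3.11 with ruxolitinib. The group means were 1.88 ± 0.12, 1.38 ± 0.072, 3.76 ± 0.36 and 3.15 ± 0.071 (SD, n = 3). The groups did not overlap, with DMSO the lowest and palbociclib the highest.

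The death receptor sum was 567 ± 24.0 per kb in proliferating cells, 1607 ± 3.6 in DMSO cells, 1438 ± 70.0 with palbociclib and 1697 ± 30.0 with ruxolitinib. The decoy sum was 1066 ± 67.0, 2218 ± 113, 5399 ± 441 and 5345 ± 75.0 per kb in the same order. From proliferating to DMSO cells the death receptor sum rose by a larger factor than the decoy sum, and with the inhibitors the decoy sum was far higher at a death receptor sum near that of DMSO.

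TNFRSF10D held 43.8% ± 0.87 of the summed TRAIL receptor level in proliferating cells, 33.9% ± 1.4 in DMSO cells, 61.6% ± 1.5 with palbociclib and 63.8% ± 0.51 with ruxolitinib. TNFRSF10B held 33.3% ± 1.4, 39.8% ± 1.3, 20.3% ± 1.5 and 23.0% ± 0.48. TNFRSF11B held 20.7% ± 0.97, 18.8% ± 0.33, 16.5% ± 0.063 and 9.67% ± 0.059, so its share with palbociclib stayed above that with ruxolitinib. TNFRSF10C never held more than 5.79% and TNFRSF10A never more than 2.39% of the sum in any library, both with DMSO. Without the secreted TNFRSF11B the ratio was 2.98 ± 0.30 with palbociclib and 2.75 ± 0.067 with ruxolitinib, and these groups then overlapped (2.65 to 3.23 and 2.71 to 2.83).

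**Figure D3:**
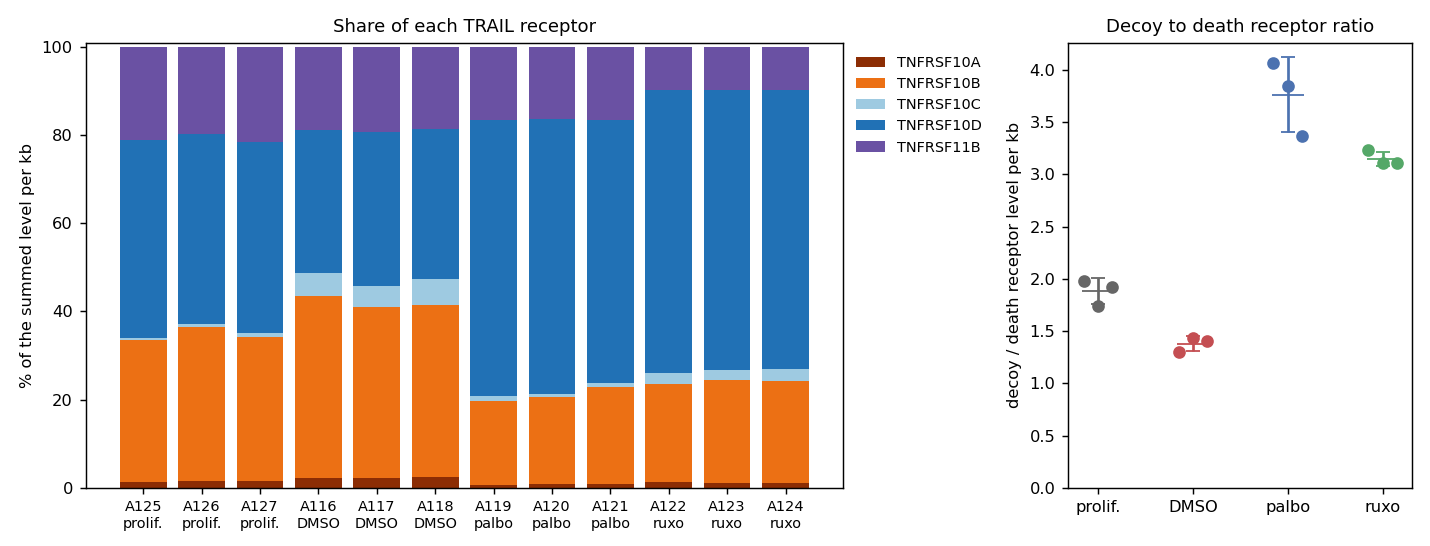
Left, share of each TRAIL receptor in the summed normalized count per kb (percent, stacked to 100) in each of the 12 libraries; right, decoy to death receptor ratio by group (points are libraries, bars the mean with its SD, n = 3). TNFRSF10D takes 59.8 to 64.3% in every inhibitor library and 32.4 to 35.0% with DMSO, and the ratio is 1.30 to 1.43 with DMSO.

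Downstream of the receptors, the death-inducing signalling complex joins FADD, caspase 8 and their regulators. Of 13 genes listed 12 were tested, and with DMSO against proliferating cells 6 were higher and 4 lower, with a median log2 fold change of 0.10. Over all genes tested, 33.0% were higher and 39.3% lower. CFLAR, the FLIP inhibitor of caspase 8, rose (0.92, adjusted p 4.27e-09 by limma), FADD fell (-0.60, adjusted p 1.43e-05), and CASP8 was at 232 ± 21.9 and 199 ± 12.7 normalized counts (-0.22, adjusted p 0.0645). These 3 were picked as the core of the complex after their values had been seen. TRADD, a death domain adaptor, rose (0.90, adjusted p 3.09e-07) and TRAF2, an adaptor of survival signalling, fell (-1.17, adjusted p 7.42e-07).

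With palbociclib against DMSO 3 of the 12 were higher and 1 lower, beside 26.0% and 22.3% of all genes tested. With ruxolitinib against DMSO the counts were 0 and 1, beside 1.1% and 3.42%. The gene lower with both was TNFAIP3, the ubiquitin-editing enzyme A20 that restrains NF-kB, which fell by 2.34 on the log2 scale with palbociclib (adjusted p 1.72e-10) and by 0.68 with ruxolitinib (adjusted p 0.00103). PEA15, which binds FADD, rose with palbociclib, from 16162 ± 650.2 to 23196 ± 1140 normalized counts (fitted log2 fold change 0.52, adjusted p 4.82e-07). TRADD rose too (0.37, adjusted p 0.00396), but not at an equal total (0.14, adjusted p 0.209).

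Of 15 genes of the caspase cascade and its mitochondrial branch, 4 were higher and 6 lower with DMSO than in proliferating cells (median log2 fold change -0.10). The counts were 4 and 4 with palbociclib against DMSO (median -0.04) and 0 and 2 with ruxolitinib against DMSO (median 0.08). Among all genes tested, the shares higher and lower were 33.0% and 39.3%, 26.0% and 22.3%, and 1.1% and 3.42% in that order. BBC3 (PUMA, a damage-induced killer protein of the BCL2 family) rose with DMSO (1.17, adjusted p 4.52e-06) and fell with palbociclib (-0.85, adjusted p 0.000338). BID, which links death receptors to mitochondria, rose with DMSO (0.66, adjusted p 5.45e-07) and with palbociclib (0.23, adjusted p 0.0163), the latter not at an equal total (-0.001), with quantile normalization (0.17, adjusted p 0.0681) or without library A116 (0.16, adjusted p 0.0992). The executioner CASP6 fell with palbociclib (-0.59, adjusted p 4.53e-05).

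Of 8 apoptosis brakes tested, 4 were higher and 2 lower with DMSO than in proliferating cells. With palbociclib 0 were higher and 6 lower than with DMSO (median log2 fold change -0.30), and with ruxolitinib 0 and 4 (median -0.21). The shares of all genes tested, higher and lower, were 33.0% and 39.3%, 26.0% and 22.3%, and 1.1% and 3.42% in that order of comparisons. BIRC3, an inhibitor of apoptosis that acts at TNF receptors, rose with DMSO (1.17, adjusted p 2.63e-08) and fell with palbociclib (-1.48, adjusted p 1.06e-08). BIRC5 (survivin), which also serves mitosis, fell with DMSO (-2.83, adjusted p 3.75e-12) and again with palbociclib (-2.67, adjusted p 6.75e-11). The anti-apoptotic BCL2 fell from 172 ± 29.6 to 33.8 ± 14.9 normalized counts with DMSO (-2.38, adjusted p 6.43e-07), while its relative BCL2L2 rose (0.96, adjusted p 1.54e-09). The calls of BIRC3 (-0.38, adjusted p 0.0374) and BIRC5 (-0.46, adjusted p 0.025) with ruxolitinib were lost in limma without a variance trend (adjusted p 0.0691 and 0.072), and that of BIRC3 with no filter (0.0545). They were also lost without single libraries, BIRC3 with A116, A117, A118, A122, A123, A124 or A125 left out and BIRC5 with A116, A118, A122, A123 or A124 left out.

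Other genes of the ligand and receptor families differed between DMSO and proliferating cells as well. Of 36 listed, 19 were tested, and 13 were higher and 5 lower with DMSO than in proliferating cells (median log2 fold change 1.02). The counts were 4 and 7 with palbociclib against DMSO (median -0.31) and 0 and 1 with ruxolitinib (median -0.09). Beside these, 33.0% and 39.3%, 26.0% and 22.3%, and 1.1% and 3.42% of all genes tested were higher and lower. TNFSF13B (BAFF, a B cell survival factor) rose from 7.23 ± 0.549 to 83.0 ± 9.56 normalized counts with DMSO (log2 fold change 3.35, adjusted p 4.2e-10). It was the one gene of this list lower with ruxolitinib (-0.94, adjusted p 0.0106), and fell with palbociclib by 1.26 (adjusted p 9.35e-05). Its call with ruxolitinib was lost without A116 (adjusted p 0.0512), A118 (0.0715) or A124 (0.0707). TNFSF15 rose with DMSO by 3.09 (adjusted p 6.71e-08) and fell with palbociclib by 1.45 (adjusted p 0.000552).

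TNFSF9 and NGFR were low in proliferating cells too. TNFSF9, the ligand of the T cell receptor 4-1BB, rose with DMSO to 32.3 ± 7.23 normalized counts (fitted log2 fold change 3.03, adjusted p 1.26e-06) and stood at 23.5 ± 12.3 with palbociclib (-0.54, adjusted p 0.22), where it was called lower without A120 (-0.92, adjusted p 0.0445). NGFR, the neurotrophin receptor p75, held at most 1 read per proliferating library and 26 to 29 reads with DMSO, 4 to 15 with palbociclib and 19 to 28 with ruxolitinib. It passed the filter through its DMSO level alone, and without it 12 of 18 genes were higher and 5 lower with DMSO, and 4 and 6 with palbociclib.

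Genes of the transcriptional response to DNA damage, listed without TNFRSF10B and FAS, are given because both receptors belong to that programme. With DMSO 20 of 20 were higher than in proliferating cells (median log2 fold change 1.35), beside 33.0% of all genes tested. With palbociclib 1 was higher and 17 lower than with DMSO (median -0.62), and with ruxolitinib 3 and 0 (median 0.10). Between the inhibitors 0 were higher and 18 lower with palbociclib (median -0.61). Shares of all genes tested, higher and lower, were 26.0% and 22.3%, 1.1% and 3.42%, and 22.8% and 17.6% in that order. CDKN1A, the p21 brake of the cell cycle, stood at 3389 ± 195 normalized counts in proliferating cells, 29150.3 ± 662 in DMSO cells, 14779 ± 998 with palbociclib and 31744 ± 1333 with ruxolitinib. GDF15, a stress cytokine, fell with palbociclib by 2.27 on the log2 scale (adjusted p 5.23e-11), BTG2, an antiproliferative gene, by 1.46 (adjusted p 6.83e-07) and SPATA18, a gene of mitochondrial quality control, by 0.56 (adjusted p 0.000216).

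Interferon-stimulated genes, listed without TNFSF10, had the widest range. Of 19 tested, 18 were higher and 0 lower with DMSO than in proliferating cells (median log2 fold change 4.32), and all 19 were lower with palbociclib (median -3.59) and with ruxolitinib (median -4.29) than with DMSO. Both inhibitor comparisons share the DMSO libraries. Over all genes tested, 33.0% were higher with DMSO than in proliferating cells, and 22.3% were lower with palbociclib and 3.42% with ruxolitinib. The antiviral enzyme gene OAS2 held 0 to 2 reads per proliferating library and 629.5 ± 35.8 normalized counts with DMSO, 31.6 ± 3.70 with palbociclib and 5.75 ± 2.87 with ruxolitinib. OAS1 and RSAD2 were at 0 reads in proliferating cells and at 326 ± 15.2 and 215 ± 8.90 normalized counts with DMSO. IFI44L fell by 4.58 with palbociclib (adjusted p 1.43e-07 without the filter) and by 5.89 with ruxolitinib (adjusted p 2.95e-08). OAS1, RSAD2 and IFI44L passed the filter through their DMSO level alone, and without these 3 genes 15 of 16 were higher with DMSO and 16 of 16 lower with each inhibitor (medians 4.01, -3.51 and -3.42). Beside these, TNFSF10 was 2.34-fold lower with palbociclib and 2.27-fold lower with ruxolitinib, the latter not called.

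The integrated stress response, whose factor CHOP (DDIT3) is known to act on TNFRSF10B, moved in both directions. Of 12 genes, 4 were higher and 8 lower with DMSO than in proliferating cells (median log2 fold change -0.36). The counts were 5 and 4 with palbociclib against DMSO (median 0.15) and 0 and 6 with ruxolitinib (median -0.29). For all genes tested, the shares higher and lower were 33.0% and 39.3%, 26.0% and 22.3%, and 1.1% and 3.42%. DDIT3 rose with DMSO by 1.93 (adjusted p 3.53e-11) and fell with palbociclib by 0.82 (adjusted p 3.62e-06), and ATF3 rose by 3.58 (adjusted p 8.49e-15) and fell by 2.54 (adjusted p 1.7e-12). The amino acid synthesis genes ASNS and PSAT1 did the reverse, and fell with DMSO by 1.92 (adjusted p 1.13e-12) and 1.86 (adjusted p 1.44e-13) and rose with palbociclib by 1.27 (adjusted p 1.13e-09) and 1.82 (adjusted p 1.7e-12).

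**Figure D4:**
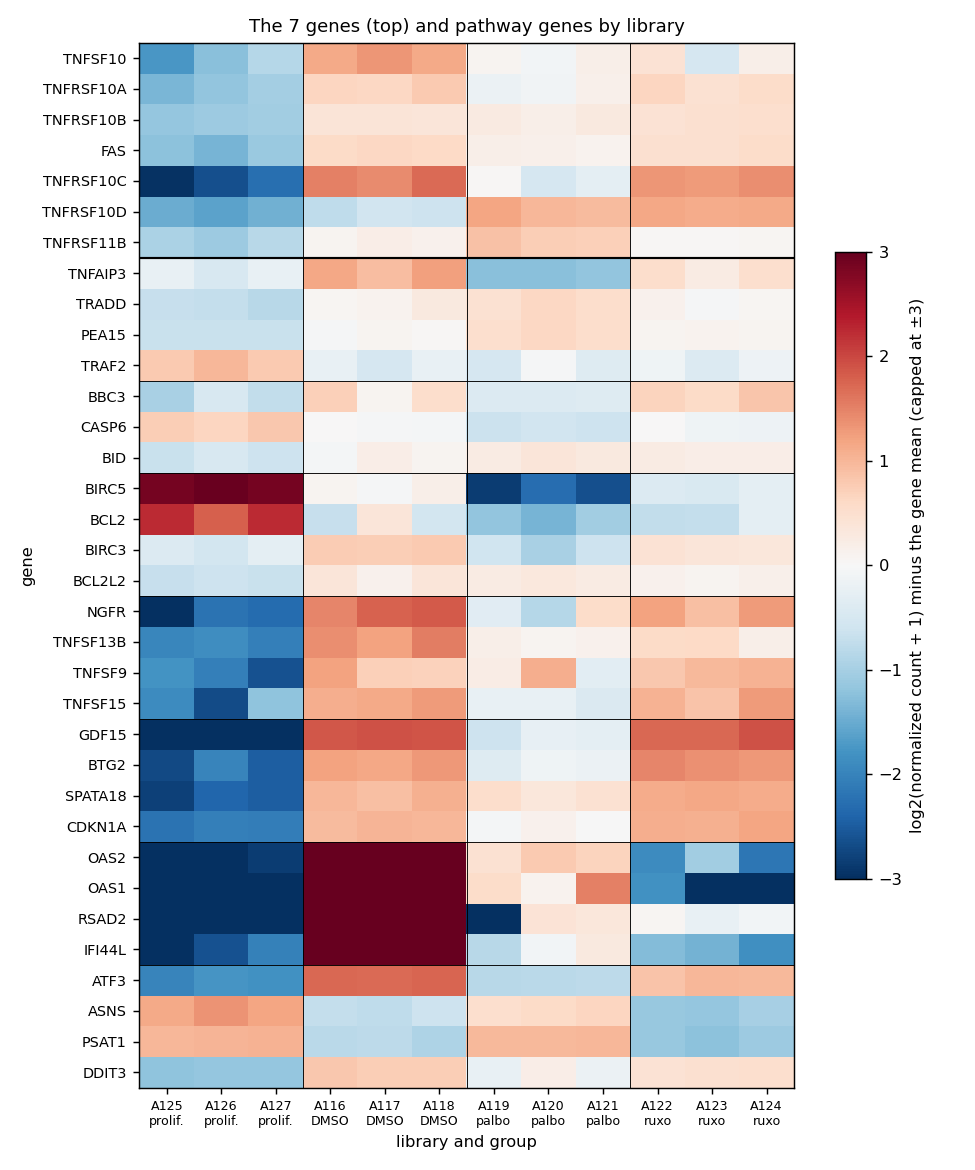
Each gene's log2(normalized count + 1) minus its mean over the 12 libraries (colour, capped at 3 in both directions), with the 7 genes at the top and the named pathway genes below in the order of their lists. In the TNFRSF10D row all 6 inhibitor libraries are higher than all 3 DMSO libraries, while the interferon-stimulated OAS2 and IFI44L are highest with DMSO.

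To place the patterns, each of the 7 genes was correlated with all genes of at least 100 mean normalized counts across the 12 libraries, and the 3 most alike are named. These libraries form 4 groups and share them between genes, so r is a description. TNFRSF10B was most like SPATA18 (Pearson r 0.997), CSGALNACT1 (0.997) and TOB1 (0.995), and FAS most like RRM2B (0.996), L1CAM (0.995) and PAPPA (0.994). TNFRSF10A was most like TNFRSF10C (0.988), ABTB2 (0.988) and MAU2 (0.987). TNFRSF10C was most like DPP4 (0.994), TNFRSF21 (0.992) and ABTB2 (0.990). TNFRSF11B was most like TRAM1 (0.996), TMEM167B (0.993) and ANKRD1 (0.992), and TNFSF10 most like ZNFX1 (0.952), MCTP2 (0.951) and BRAP (0.949).

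The genes nearest to TNFRSF10D were PALM (0.961), PIK3R2 (0.958) and RPL23AP7 (0.958). Among the 7, its r was 0.305 with TNFSF10, 0.557 with TNFRSF10C, 0.570 with TNFRSF10A, 0.663 with FAS, 0.760 with TNFRSF10B and 0.795 with TNFRSF11B. Between the receptors TNFRSF10A, TNFRSF10B, TNFRSF10C and FAS, r was 0.944 to 0.988. TNFRSF11B also stood apart from these, with r of 0.654 with TNFRSF10A, 0.825 with TNFRSF10B, 0.624 with TNFRSF10C and 0.768 with FAS. The choice of TNFRSF10D for its rise with both inhibitors used these libraries and so bears on its r. The genes that flank the receptor cluster on chromosome 8 moved little. CHMP7 stood at 1048 ± 21.8, 1125 ± 23.0, 1122 ± 53.2 and 1124 ± 40.3 normalized counts, and RHOBTB2 at 663 ± 57.6, 563 ± 28.7, 557 ± 42.3 and 579 ± 39.8, in proliferating, DMSO, palbociclib and ruxolitinib cells. CHMP7 was not called with DMSO against proliferating cells (log2 fold change 0.10, adjusted p 0.103), and RHOBTB2 was slightly lower (-0.23, adjusted p 0.0186). Neither was called with palbociclib (-0.005 and -0.02) or ruxolitinib (-0.002 and 0.04) against DMSO.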

How the data were processed

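The authors deposited 1 table of gene counts normalized per library (a signal), for 12 poly(A) RNA libraries. Per the submitters' processing notes, Trimmomatic 0.38.1, HISAT2 2.2.1, featureCounts 2.0.3 and DESeq2 2.11.40.8 were used with hg38. The annotation, strand setting and treatment of multimapped reads are not given in the sources used here. All 160380 of 160380 values above 0 were whole multiples of 1 read's worth in their library (tolerance 0.01 reads, 100%), so whole reads were recovered. In library A116 a read was worth 0.990, so that column alone says little. The table ended at Entrez gene 140467, and genes with higher numbers were not analysed here. Columns carry a group and a library number, and each was assigned to its group.

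The test was limma 3.58.1 in R 4.3.3 with a variance trend on log2(normalized count + 1), over all 12 libraries and 4 group means, for 11242 genes with a mean of at least 10 and Benjamini-Hochberg adjustment. The threshold of a call was an adjusted p under 0.05, in 6 comparisons. Fold changes are on the log2(value + 1) scale, and ratios are of group means. edgeR 4.0.16 (quasi-likelihood, TMM) and DESeq2 1.42.0 on recovered reads were alternatives. The fit was tested on simulated data. Genes named in the pathway lists are up to 4 per list, those with the largest fold change in any comparison that were called, except for 1 that is not reported here. The 7 genes, the 7 pathway lists and the marker lists were chosen with earlier results of these data known.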

Additional observations from a re-analysis of the deposited data

How the results depend on the processing

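Of 957 values of the 7 genes under the alternatives, 937 were counted as unchanged. For tested values this means the same side of the threshold, and the same direction where either value was called. The count takes in values of TNFRSF10D that are given here with no test, so it is not a count of calls. The exceptions of TNFSF10, TNFRSF10B and TNFRSF10D are given beside their results. No paired analysis was possible because the table's columns carry library numbers and no replicate numbers. With ruxolitinib against DMSO, 1 gene (TNFSF10, lower) in place of 0 was called with a pseudocount of 5, with quantile normalization, with limma without a trend, with only the 2 groups in the fit and with edgeR. These fits kept a filter at a mean of 10, which over all 12 libraries TNFSF10 passed through its DMSO level alone. Without the filter limma did not call it (adjusted p 0.0827). All genes called in that comparison were 508, and 1831 with only the 2 groups in the fit. Leaving out each library in turn gave 261 (without A122) to 726, and 276 to 295 without A116, A117, A118, A123 or A124. The causes were not tested. The decoy to death receptor ratio in proliferating, DMSO, palbociclib and ruxolitinib cells was 1.46, 1.01, 3.06 and 2.63 without division by length, 1.28, 0.932, 2.98 and 2.75 with membrane decoys only, 1.47, 1.02, 2.92 and 2.40 with FAS among the death receptors, and 2.21, 1.61, 4.52 and 3.82 with the length of all exons, an alternative chosen after seeing the data. The order of the group means was the same in all 4. With quantile normalization, ruxolitinib against proliferating cells turned to -0.29 for TNFSF10, -0.076 for OAS2, -1.22 for OAS1 and -0.84 for IFI44L, and at an equal total BID with palbociclib turned to -0.001. TNFSF10 did not pass a filter at a mean of 50. At 2 to 22 reads per library, its changes are the least precise of the 7.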

Other observations

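Genes that border on this receptor system but were too low to test are given as values. TNFRSF6B, the soluble decoy of FAS ligand, held 0 to 3 reads in every library. TNFSF11 (RANKL), the other ligand of osteoprotegerin, held 0 to 2 reads, and its receptor TNFRSF11A (RANK) 0 to 7 reads. CASP10, the close relative of caspase 8, stood at 1.59 ± 2.75 normalized counts in proliferating cells, 19.1 ± 6.81 in DMSO cells, 3.61 ± 1.58 with palbociclib and 14.8 ± 0.583 with ruxolitinib (SD, n = 3), below the filter on its mean over all libraries.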
